A study of Mus musculus with 3 samples.

Results

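The protein-folding genes described here are 38 symbols, of 54456 in the deposited matrices. They comprise 29 genes of the endoplasmic reticulum (ER) stress response, 7 cytosolic heat shock genes and the 2 genes of the mitochondrial chaperonin, Hspe1 and Hspd1. They were chosen by name, with earlier results of these data known, and all 38 were found in the files. RNA was measured in single lung cells of wild-type C57BL/6 mice by droplet sequencing of 3′ ends (10x GEM-X), where each RNA molecule carries a unique molecular identifier (UMI). The groups had received, 24 h earlier and through the exposed trachea, 50 µL of PBS, LPS (bacterial lipopolysaccharide) at 4 mg/kg, or LPS at 4 mg/kg together with Reg3g (6 µg), a C-type lectin that cells secrete. Live CD45+ Ly6G- F4/80+ cells positive for CD11b or CD11c were sorted after digestion of the lung with Liberase at 37 °C for 15 min. Cells of 3 mice were pooled into 1 library per group. With a single library there is no replicate spread, and so no test between groups was made.

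The deposited matrices held 8475 (PBS), 15015 (LPS) and 10213 (LPS with Reg3g) barcodes, of which 7861, 13013 and 9279 cells were kept, with medians of 5927, 4217 and 5453 UMIs per cell. Any pair of libraries shared 28 to 37 barcodes. Clusters were named from marker genes, and most values below are for alveolar-macrophage-like cells (3622, 3565 and 3306 cells in PBS, LPS and LPS with Reg3g) and monocyte-like cells (2210, 5971 and 4163). The alveolar-macrophage-like clusters held UMIs of 17 or 18 of the 18 alveolar macrophage markers. Different clusters filled each class in the PBS and LPS libraries. Of the alveolar-macrophage-like cells, cluster 2 held 3406 in PBS and 78 in LPS, and cluster 16 held 2626 in LPS. Of the monocyte-like cells, cluster 7 held 1525 in PBS, while clusters 6, 10 and 12 held most of those in LPS. Cluster 12 (1 PBS and 1667 LPS cells) was led by Upp1, Ccl2 and Acod1. Cluster 13 (6 and 353 cells) was led by H2ac24 and H1f5. No monocyte marker was among the genes that led either, although they held UMIs of 11 and 12 classical monocyte markers. A cluster led by Fstl1 and Inhba, with 1502 LPS cells, 836 LPS with Reg3g cells and none in PBS, stayed unnamed, although it held UMIs of 16 of the 18 alveolar macrophage markers. The alveolar-macrophage-like values do not include it, and values of its main members are given apart. The sort was aimed at macrophages, and the named clusters also held dendritic-cell-like, neutrophil-like, lymphocyte-like and structural cells.

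Secreted and membrane proteins fold in the ER. When unfolded proteins build up there, the sensors Ern1 (IRE1), Eif2ak3 (PERK) and Atf6 start the unfolded protein response. Ern1 splices Xbp1 RNA into its active form, Atf6 is released as a transcription factor, and Eif2ak3 slows translation while Atf4 is made, which acts on Ddit3, Trib3, Asns and Ppp1r15a. Cytosolic heat shock genes answer to another factor, HSF1, and hold both inducible members (Hspa1a, Hspa1b, Dnajb1, Hsph1) and members that most cells make all the time (Hspa8, Hsp90ab1). Sequencing of 3′ ends does not tell spliced from unspliced Xbp1.

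Many ER chaperone promoters hold a known control sequence, the ER stress element, in which CCAAT and CCACG stand 9 bases apart. Promoters of 31 of the 38 members, from 250 bases before to 50 after the start, were taken from RefSeq (GRCm38.p6). Searched on both strands with any 9 bases between, the element was present in 8 of 25 matched ER response genes. Of all 27025 genes 0.137% had it, and of all 32851 promoters 0.119%. It was present in 7 of 12 matched ER folding genes and in 0 of 4 matched cytosolic heat shock genes. The matched sites are shown because they are what those genes share beside their function. Capitals mark CCAAT and CCACG, and each site is written in the direction of the element.
Calr (chr8:84847075-84847093): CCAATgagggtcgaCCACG
Canx (chr11:50325800-50325818): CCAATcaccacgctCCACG
Creld2 (chr15:88819520-88819538): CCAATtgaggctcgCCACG
Dnajc3 (chr14:118937827-118937845): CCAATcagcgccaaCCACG
Hsp90b1 (chr10:86705533-86705551): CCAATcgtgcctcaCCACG
Hsp90b1 (chr10:86705638-86705656): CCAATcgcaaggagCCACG
Hspa5 (chr2:34772025-34772043): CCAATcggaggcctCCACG
Pdia6 (chr12:17266491-17266509): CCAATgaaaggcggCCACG
Syvn1 (chr19:6046532-6046550): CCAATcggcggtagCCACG
The matched Hspa5 site lies 47 to 65 bases before the start, and Hsp90b1 holds 2 matched sites. The promoter of Hspa5, the gene most often read as the sign of ER stress, is given whole with the matched element in capitals.
Hspa5 promoter (chr2:34771840-34772139, plus strand): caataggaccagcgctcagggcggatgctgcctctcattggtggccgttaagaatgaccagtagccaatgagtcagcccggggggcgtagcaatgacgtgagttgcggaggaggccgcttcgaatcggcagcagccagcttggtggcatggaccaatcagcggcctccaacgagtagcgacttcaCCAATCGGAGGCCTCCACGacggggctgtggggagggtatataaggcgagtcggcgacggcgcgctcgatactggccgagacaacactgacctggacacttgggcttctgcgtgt
The related form, ATTGG and CCACG with any 1 base between, was found at Dnajb11 and Herpud1 and in 0.0365% of all promoters. TGACGTGG, a site for Xbp1 and Atf6, was found at none of the matched members and in 0.676% of promoters. Inexact sites were not counted in any of these searches. A match is a description of letters and not of binding.

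Values below are UMIs of a gene per 1e6 UMIs of its class and library (CPM), ratios are log2 ratios of 2 libraries, and brackets hold 95% intervals for counting error only. A gene was counted as measured in a class at a mean of at least 10 CPM over the 3 libraries. Genes at least 2-fold apart are counted for LPS against PBS, and genes at least 25% higher or at least 20% lower for LPS with Reg3g against LPS. Both comparisons use the LPS library, so they share its errors.

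In alveolar-macrophage-like cells the ER folding genes were nearly level between LPS and PBS. Their 14 log2 ratios had a median of 0.08, 8 were above 0, and none of the 14 was 2-fold higher or lower. Of all 7301 genes measured in this class, 4.97% were at least 2-fold higher in LPS, 10.1% were at least 2-fold lower, and the median was -0.19. Scaling by median-of-ratios or by trimmed mean added 0.19 or 0.25 to every ratio of this comparison, which moved the smaller ratios across 0 and put the folding median at 0.27 or 0.32. Of the 26 measured ER response genes, 1 (Asns) was 2-fold higher, none was 2-fold lower, and the median was -0.12.

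Hspa5 (BiP), the main ER chaperone and the protein that holds the sensors inactive, stood at 654 CPM in PBS, 857 in LPS and 974 in LPS with Reg3g. Its log2 ratio of LPS against PBS was 0.39 [0.36, 0.42]. Manf, a secreted factor that binds Hspa5, had the largest ratio among the folding genes. It read 231, 406 and 486 CPM, with a log2 ratio of 0.81 [0.77, 0.86]. Creld2, a small ER protein of the disulphide exchange kind, read 32.8, 44.4 and 63.8 CPM (0.44), and Hyou1, a large chaperone that works with Hspa5, read 41.5, 53.7 and 67.0 CPM (0.37). These genes were lowest in PBS and highest in LPS with Reg3g. The lectin chaperone Calr (727, 835 and 993 CPM) and the co-chaperone Dnajb11 (117, 146 and 169 CPM) had the same order, with ratios of 0.20 and 0.31.

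Other folding genes were lower in LPS than in PBS. Canx, the membrane-bound partner of Calr, read 611, 472 and 543 CPM in PBS, LPS and LPS with Reg3g (-0.37). Dnajc3, which also restrains Eif2ak3, read 148, 113 and 139 CPM (-0.39). Dnajb9, a co-chaperone of Hspa5 and a target of spliced Xbp1, read 125, 103 and 94.0 CPM (-0.27). Its LPS level differed between clusters, at 84.3 CPM in cluster 16 (2626 cells) and 178 CPM in cluster 18 (776 cells). The Hsp90 form of the ER, Hsp90b1, read 943, 823 and 1035 CPM (-0.20), and the disulphide isomerase Pdia3 read 539, 461 and 544 CPM (-0.23). Both of these ratios were above 0 under trimmed mean scaling. Pdia4 (126, 139 and 182 CPM), Pdia6 (343, 345 and 421 CPM) and Sdf2l1, a partner of Dnajb11 (120, 116 and 156 CPM), had ratios of 0.14, 0.01 and -0.05. Pdia6 and Sdf2l1 changed sign under some alternatives.

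The 6 genes of ER-associated degradation, which sends misfolded proteins back to the cytosol, had a median log2 ratio of -0.27 for LPS against PBS. Syvn1 (Hrd1), the ubiquitin ligase of this route, read 22.8 CPM in PBS, 12.4 in LPS and 17.4 in LPS with Reg3g (-0.88 [-1.10, -0.67]). Edem1, which marks glycoproteins for removal, read 69.6, 52.1 and 61.8 CPM (-0.42). The ligase's partner Sel1l read 100, 82.8 and 89.3 CPM (-0.27), and Derl1, a channel component, read 137, 114 and 112 CPM (-0.26). Its relative Derl2 read 53.1, 58.8 and 63.3 CPM (0.15), and Herpud1, which organises the ligase, was level at 90.1 and 90.2 CPM before 82.3 CPM with Reg3g.

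Among the sensors, Atf6 read 34.4, 30.2 and 33.1 CPM. Ern1 (11.7, 7.98 and 8.45 CPM) and Eif2ak3 (13.2, 6.99 and 8.41 CPM) were under the floor. Xbp1 read 307, 265 and 265 CPM (-0.21), and alveolar-macrophage-like cells had the highest Xbp1 of all classes in each library, although in LPS the interval of neutrophil-like cells (243 CPM) overlapped theirs. Trimmed mean scaling put the Xbp1 ratio at 0.04 and the Atf6 ratio at 0.06.

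Atf4 and the genes it acts on went different ways in alveolar-macrophage-like cells. Whether Eif2ak3 had a part in their levels was not tested. Asns, which makes asparagine, read 2.81 CPM in PBS, 31.7 in LPS and 23.3 in LPS with Reg3g. It was 11.3-fold higher in LPS than in PBS (log2 ratio 3.49 [3.16, 3.85]) and ranged from 3.40 to 3.96 over the alternatives. Asns had a UMI in 0.392% of PBS cells and 5.31% of LPS cells after each cell was thinned to 2000 UMIs, or 1.91% and 14.2% without thinning. Lymphocyte-like cells had 0 of 91 cells in PBS, which allows a share of up to 3.97%, and 1.23% of 81 cells in LPS, or 0.606% and 2.29% without thinning. These cells are too few to set a background for the PBS share. Atf4 itself read 202, 164 and 180 CPM (-0.30), and Ddit3 (CHOP), a death-promoting factor, read 36.5, 21.8 and 16.9 CPM (-0.75). Ppp1r15a (GADD34), which restores translation, read 64.3, 81.8 and 58.2 CPM (0.35), and Trib3 was under the floor at 2.29, 6.30 and 6.76 CPM. Within the LPS library Ppp1r15a read 63.5 CPM in cluster 16 and 146 CPM in cluster 18. Asns was thus 2-fold higher while Ddit3, another target of the same factor, was lower.

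The promoters of Asns, Herpud1 and Trib3 held TGATGNAA, a form of the composite element bound by Atf4, which 3.97% of all promoters hold. The Asns promoter is shown with these letters in capitals.
Asns promoter (chr6:7693160-7693459, minus strand): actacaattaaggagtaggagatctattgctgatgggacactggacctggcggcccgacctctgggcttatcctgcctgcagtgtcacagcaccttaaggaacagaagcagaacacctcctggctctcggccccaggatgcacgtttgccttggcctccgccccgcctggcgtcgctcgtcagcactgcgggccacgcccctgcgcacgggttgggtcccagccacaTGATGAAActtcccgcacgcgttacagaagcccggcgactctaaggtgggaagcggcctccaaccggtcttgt

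In monocyte-like cells the ER folding genes were higher in LPS than in PBS. The 14 log2 ratios had a median of 0.63, 12 of them were above 0, 5 were at least 2-fold higher (Pdia4, Pdia6, Sdf2l1, Creld2 and Manf) and 1 was 2-fold lower (Dnajb9). Of all 7266 genes measured in this class 10.4% were 2-fold higher and 7.34% were 2-fold lower, with a median of 0.04. The summed level of the 14 genes was 2697 CPM in PBS, 4217 in LPS and 4490 in LPS with Reg3g. In alveolar-macrophage-like cells it was 4760, 4914 and 5868 CPM, so the classes stood nearer each other in LPS than in PBS.

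Creld2 had the largest ratio, with 11.9 CPM in PBS, 33.6 in LPS and 37.1 in LPS with Reg3g (1.50 [1.20, 1.82]). The isomerases Pdia6 (162, 363 and 403 CPM) and Pdia4 (32.1, 71.1 and 83.6 CPM) had ratios of 1.16 and 1.15 [0.96, 1.34]. Sdf2l1 read 73.5, 157 and 183 CPM (1.09), and Manf read 134, 273 and 268 CPM (1.03). Manf was at 2-fold or more in 9 of 16 alternatives. The abundant chaperones were higher by less than 2-fold. Calr read 363, 656 and 700 CPM (0.85), Hsp90b1 read 416, 649 and 692 CPM (0.64), and Pdia3 read 314, 483 and 557 CPM (0.62). Hspa5 read 660, 954 and 922 CPM (0.53), Dnajb11 read 96.2, 146 and 163 CPM (0.60), and Hyou1 read 29.2, 41.4 and 46.0 CPM (0.51). Canx (261, 289 and 325 CPM) and Dnajc3 (76.1, 71.3 and 86.3 CPM) lay near level at 0.15 and -0.09. Dnajb9 was the exception, at 67.9, 28.9 and 23.3 CPM (-1.23 [-1.40, -1.07]).

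The sensors and regulators of monocyte-like cells were lower in LPS while most folding genes were higher. Ern1 read 33.8, 12.5 and 12.3 CPM (-1.44), Eif2ak3 read 17.6, 8.50 and 10.9 CPM (-1.05), and Atf6 read 102, 53.3 and 58.1 CPM (-0.94). Eif2ak3 was at 2-fold or more in 10 of 16 alternatives. Atf4 read 268, 166 and 163 CPM (-0.69), Ddit3 read 68.0, 28.9 and 17.2 CPM (-1.23), and Ppp1r15a read 346, 223 and 257 CPM (-0.64). Xbp1 read 214, 187 and 181 CPM (-0.19). Asns was under the floor at 0.24, 6.86 and 5.45 CPM and rested on 2 UMIs in PBS, so its log2 ratio of 4.83 had an interval of 2.95 to 7.88. Trib3 was under the floor too, at 0.24, 1.64 and 1.80 CPM. Of the 27 measured ER response genes, 5 were 2-fold higher and 4 were 2-fold lower (Dnajb9, Ern1, Eif2ak3 and Ddit3). The shares of all measured genes were 10.4% and 7.34%. The degradation genes Derl2 (26.0, 45.4 and 48.9 CPM, 0.80) and Sel1l (47.0, 60.8 and 74.7 CPM, 0.37) were higher and Syvn1 (16.8, 10.9 and 13.1 CPM, -0.63) was lower. Herpud1 (87.4, 88.3 and 83.0 CPM), Edem1 (86.3, 74.6 and 87.9 CPM) and Derl1 (119, 106 and 114 CPM) had ratios between -0.21 and 0.02.

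The monocyte-like difference was also a difference of clusters. Cluster 5, with nonclassical monocyte markers, was present in every library with 672, 267 and 283 cells. Within it the ER folding median of LPS against PBS was -0.01. With classical-like clusters alone the ER folding median was 0.77, and with nonclassical-like clusters alone it was 0.25. With all kept cells of a library as one class it was 0.22.

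**Figure D1:**
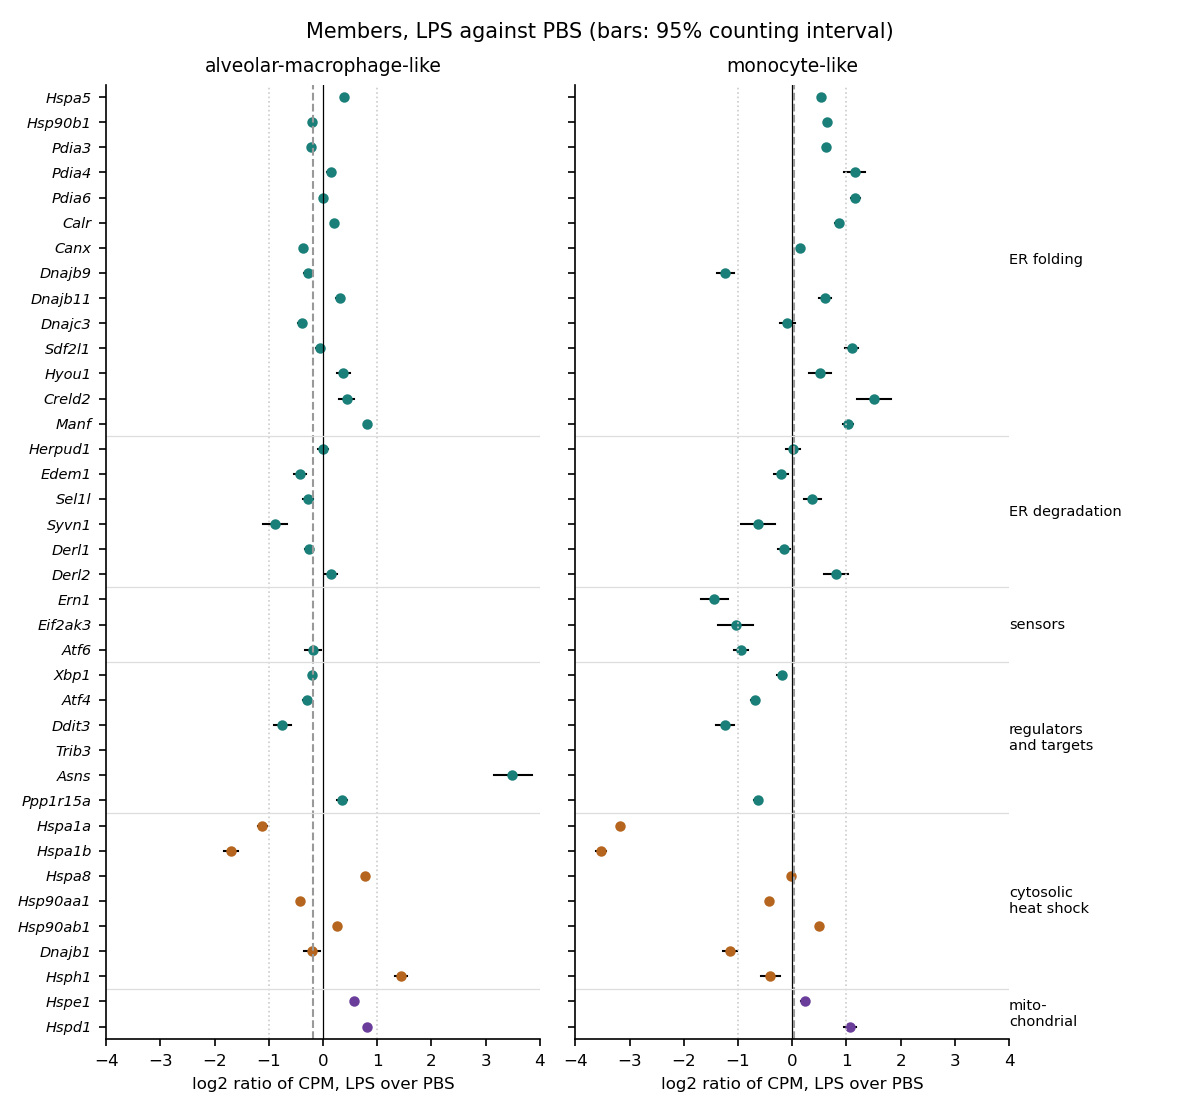
Log2 ratio of CPM, LPS against PBS, for each measured member in alveolar-macrophage-like and monocyte-like cells (points; bars are 95% counting intervals; teal, ER response; brown, cytosolic heat shock; purple, mitochondrial chaperonin). The dashed line is the median of all measured genes and the dotted lines mark 2-fold; Hspa1a and Hspa1b lie farthest left, and Asns stands apart to the right in alveolar-macrophage-like cells.

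Among the cytosolic heat shock genes, the inducible Hsp70 pair was lower in LPS than in PBS in both classes, by more in monocyte-like cells. The other members were higher, lower or nearly level. Hspa1a and Hspa1b, which make inducible Hsp70, were the members with the lowest ratios in both classes. In monocyte-like cells Hspa1a read 1289 CPM in PBS, 143 in LPS and 228 in LPS with Reg3g, and was 9.02-fold lower in LPS than in PBS (log2 ratio -3.17 [-3.23, -3.12]). Hspa1b read 721, 62.5 and 118 CPM (-3.53 [-3.61, -3.44]), and Dnajb1, the co-chaperone that delivers substrates to Hsp70, read 113, 51.0 and 47.8 CPM (-1.14). In alveolar-macrophage-like cells Hspa1a read 169, 78.0 and 28.9 CPM (-1.12 [-1.20, -1.03]) and Hspa1b read 100, 30.9 and 17.3 CPM (-1.70), while Dnajb1 read 37.6, 32.7 and 26.2 CPM (-0.20, or 0.05 with trimmed mean scaling). Hspa1a was at least 2-fold lower there in 12 of 15 alternatives, with ratios from -1.87 to -0.87. Different clusters filled each class in PBS and LPS, so these ratios are also differences of clusters. Within clusters held by both libraries, the median of the 7 heat shock genes was -0.45 in cluster 2, 0.28 in cluster 15 and -0.32 in cluster 5. Of the 7 genes 1, 4 and 2 were above 0. These medians cover all 7 genes and do not describe the Hsp70 pair alone. Clusters 2 and 15 held only 78 and 85 LPS cells.

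Hspa1a and Hspa1b are neighbouring near-identical copies, at chr17:34969190-34972156 and chr17:34956436-34959238 in GENCODE M21 (mm10). How reads were divided between them is uncertain, so their sum is the safer value. The sum was 2010 CPM in PBS, 205 in LPS and 346 in LPS with Reg3g in monocyte-like cells, and 269, 109 and 46.2 CPM in alveolar-macrophage-like cells. Their promoters were identical at 296 of 300 bases. The 4 differences, counted from the 5′ end with the Hspa1a base first, are C44T, T47C, T249G and C276T. The promoter of Hspa1a is given for that comparison, with no capitals.
Hspa1a promoter (chr17:34972107-34972406, minus strand): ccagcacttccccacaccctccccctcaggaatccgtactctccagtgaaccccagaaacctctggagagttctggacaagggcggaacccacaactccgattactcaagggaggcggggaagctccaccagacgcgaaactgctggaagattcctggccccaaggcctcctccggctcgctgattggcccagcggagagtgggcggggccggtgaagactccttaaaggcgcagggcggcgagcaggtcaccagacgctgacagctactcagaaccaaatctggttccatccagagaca

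The other heat shock genes behaved differently from the inducible Hsp70 pair. Hspa8, the constitutive Hsp70, read 551, 949 and 857 CPM in alveolar-macrophage-like cells (0.78) and 809, 794 and 744 CPM in monocyte-like cells (-0.03). Hsph1 (Hsp110), which exchanges nucleotide on Hsp70, read 35.9, 97.2 and 102 CPM in alveolar-macrophage-like cells, 2.70-fold higher in LPS than in PBS (1.44 [1.33, 1.55]). In monocyte-like cells Hsph1 read 45.6, 34.4 and 36.1 CPM (-0.41). Of the Hsp90 pair, Hsp90ab1 was higher in LPS in both classes, at 2126, 2560 and 2791 CPM (0.27) and at 1405, 1971 and 1991 CPM (0.49). Hsp90aa1, its more inducible relative, was lower in both, at 325, 244 and 261 CPM (-0.42) and at 376, 279 and 287 CPM (-0.43). Of the 7 genes, 1 was 2-fold higher (Hsph1) and 2 were 2-fold lower in alveolar-macrophage-like cells, and 3 were 2-fold lower in monocyte-like cells. Of all measured genes, 4.97% were 2-fold higher and 10.1% were 2-fold lower in alveolar-macrophage-like cells, and 7.34% were 2-fold lower in monocyte-like cells.

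Over each main class as a whole, the mitochondrial chaperonin was higher in LPS. Hspd1 (Hsp60) read 191, 336 and 347 CPM in alveolar-macrophage-like cells (0.81) and 86.8, 181 and 163 CPM in monocyte-like cells (1.06). Hspe1 (Hsp10), its lid, read 289, 430 and 434 CPM (0.58) and 210, 247 and 221 CPM (0.23). In monocyte-like cells Hspd1 was at 2-fold or more in 11 of 16 alternatives, with ratios from 0.11 to 1.34. There Hspe1 read 226 CPM in PBS cluster 7, against 175, 208 and 343 CPM in LPS clusters 6, 10 and 12. Hspd1 read 83.4 CPM against 96.2, 115 and 306 CPM in the same clusters. Of 8 classes compared, Hspe1 was higher in LPS in 5 and lower in 3. The 2 genes are read in opposite directions from one shared region. The heat shock element that HSF1 binds was searched on both strands as GAA, TTC and GAA with any 2 bases between neighbours. It was present at both Hspd1 and Hspe1, at 1 of 4 matched cytosolic heat shock genes (Hsph1) and in 0.603% of promoters. The letters were not found in the Hspa1a and Hspa1b windows. Only exact matches were counted, so a site with any of these letters changed would be missed. The Hspe1 promoter is shown with these letters in capitals.
Hspe1 promoter (chr1:55087898-55088197, plus strand): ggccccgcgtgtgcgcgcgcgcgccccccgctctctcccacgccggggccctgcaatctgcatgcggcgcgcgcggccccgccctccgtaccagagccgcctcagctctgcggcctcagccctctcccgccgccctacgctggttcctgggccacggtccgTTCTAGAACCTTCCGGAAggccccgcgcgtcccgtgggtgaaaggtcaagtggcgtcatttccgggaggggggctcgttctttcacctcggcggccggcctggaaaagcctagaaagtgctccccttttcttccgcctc

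Genes of the dissociation and immediate early list, which respond to handling of tissue as well as to signals, were lower in LPS as a sum. The summed level was 24366, 15484 and 16458 CPM in monocyte-like cells and 10281, 7708 and 7045 CPM in alveolar-macrophage-like cells. In monocyte-like cells 7 of 23 measured genes were 2-fold lower and 4 were 2-fold higher (median -0.87), against 7.34% and 10.4% of all measured genes. Fosb read 628 CPM in PBS and 136 in LPS, and Klf4 read 1242 and 219 CPM. Over 49 cluster-by-library groups of at least 50 cells, Hspa1a had a Spearman rho of 0.98 with Hspa1b and 0.80 with Ppp1r15a. The list also holds feedback genes of LPS signalling such as Nfkbia, at 293 CPM in PBS and 1658 in LPS in alveolar-macrophage-like cells. The part of cell handling in the heat shock values was not tested.

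Single cells showed how uneven the inducible heat shock genes were. After thinning to 2000 UMIs, the sum of Hspa1a, Hspa1b, Dnajb1 and Hsph1 in PBS monocyte-like cells had a median of 2 UMIs, 34.2% of cells had none, and 17.0% had 10 or more. In LPS the median was 0 and 0.608% had 10 or more, and in LPS with Reg3g these values were 0 and 2.09%. Its variance was 7.65 times its mean in PBS, where 1 would be counting noise alone. The ER folding sum was more even, with a variance of 1.87 times its mean in the same cells. ER folding medians were 5, 7 and 7 UMIs in monocyte-like cells and 9, 9 and 11 in alveolar-macrophage-like cells. Thinning left out 427, 1366 and 630 monocyte-like cells and 52, 197 and 85 alveolar-macrophage-like cells.

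**Figure D2:**
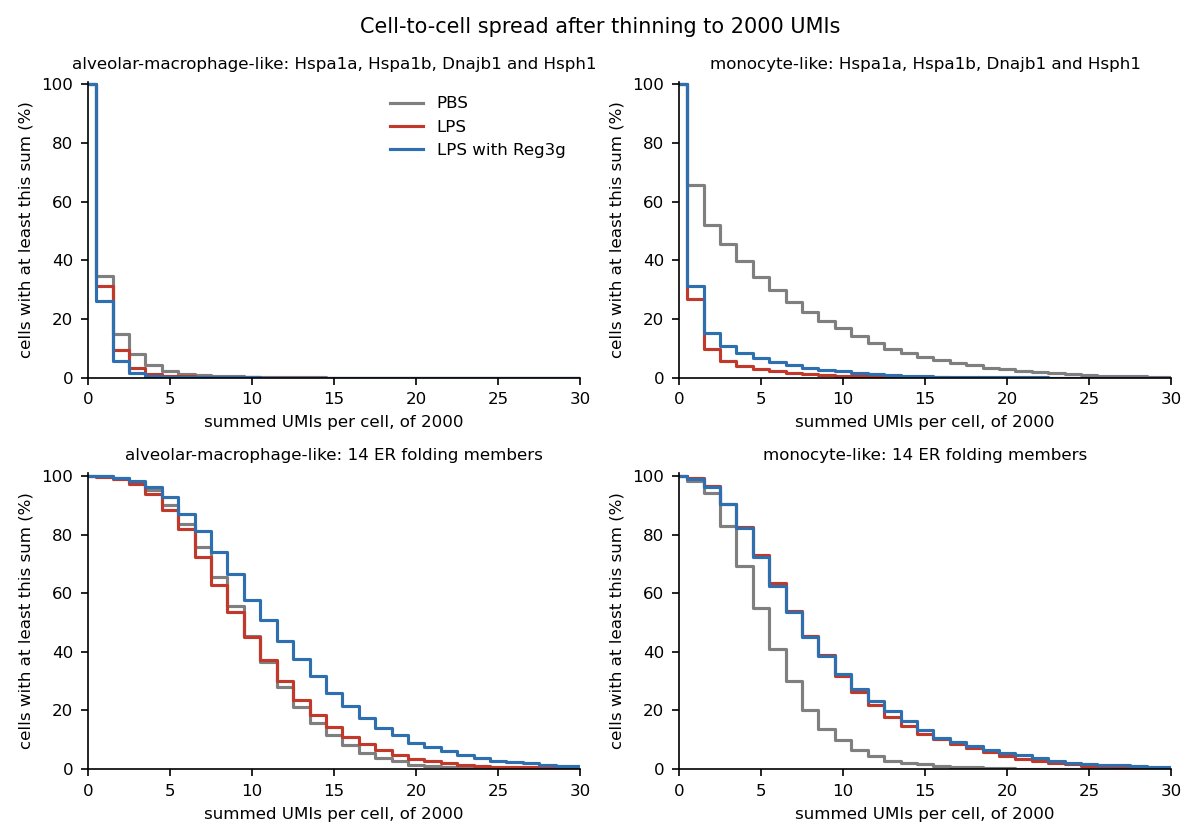
Share of cells (vertical axis) with at least a given number of summed UMIs (horizontal axis) after thinning each cell to 2000 UMIs, for inducible heat shock genes and ER folding genes in both main classes, by library. In PBS monocyte-like cells the heat shock curve keeps 17.0% of cells at 10 or more UMIs, against 0.608% in LPS.

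Hspa1a had a UMI in 53.4%, 12.1% and 17.5% of monocyte-like cells in PBS, LPS and LPS with Reg3g after thinning, and in 57.5%, 18.2% and 23.2% without it. In alveolar-macrophage-like cells the shares were 18.4%, 10.2% and 4.16% after thinning, and 31.8%, 17.9% and 10.2% without. Lymphocyte-like cells had 23.1%, 14.8% and 12.5% after thinning, above the alveolar-macrophage-like share in each library, but the intervals overlapped in PBS and LPS. Without thinning, lymphocyte-like cells had 24.8%, 19.4% and 15.5%, which was below the alveolar-macrophage-like share in PBS. No class lacks the gene for certain, so a level for free RNA could not be set, and the part of free RNA was not tested.

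The comparison of LPS with Reg3g against LPS asks how the lectin given with LPS went with chaperone RNA. In alveolar-macrophage-like cells the ER folding genes were slightly higher with Reg3g. Of the 14 genes 13 were above 0, with a median log2 ratio of 0.27 against 0.03 for all genes, and 4 were at least 25% higher (Hsp90b1, Pdia4, Sdf2l1 and Creld2). The ligase Syvn1 also passed that fold (0.49). Of all measured genes 4.47% were at least 25% higher and 2.05% were at least 20% lower. Creld2 had the largest ratio, 0.52 [0.40, 0.64], Sdf2l1 had 0.42 and Pdia4 had 0.39. Hyou1 (0.32), Pdia6 (0.29), Manf (0.26), Calr (0.25) and Hspa5 (0.19 [0.16, 0.21]) lay below the fold used. Hsp90b1 (0.33) was at least 25% higher in 7 of 15 alternatives. The 14th folding gene, Dnajb9, had -0.14.

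The same direction was seen within clusters of alveolar-macrophage-like cells. The ER folding median was 0.37 in cluster 2, where 12 of 14 genes were above 0. It was 0.30 in cluster 15, which is led by cell cycle genes, 0.24 in cluster 16 and 0.34 in cluster 18, with 13 of 14 above 0 in each. In the unnamed cluster led by Fstl1 and Inhba, Hspa5 read 943 CPM in LPS and 1108 in LPS with Reg3g, Hsp90b1 read 838 and 1098 CPM, and Creld2 read 48.6 and 68.3 CPM. The stress response targets there were lower with Reg3g, with Asns at 39.7 and 30.5 CPM and Ddit3 at 26.8 and 19.6 CPM. Of the heat shock genes, Hspa1a read 65.7 and 22.6 CPM, Hspa1b read 26.7 and 10.3 CPM, and Hsph1 read 139 and 142 CPM. With this cluster added to the alveolar-macrophage-like class, the ER folding median was 0.09 for LPS against PBS and 0.28 for LPS with Reg3g against LPS, and the Asns and Hspa1a ratios of LPS against PBS were 3.62 and -1.20.

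Of the regulators and targets in alveolar-macrophage-like cells, 3 of the 5 measured were at least 20% lower with Reg3g. Asns was 1.36-fold lower (-0.44 [-0.61, -0.28]), Ppp1r15a was 1.41-fold lower (-0.49) and Ddit3 was 1.29-fold lower (-0.36), while Atf4 itself had 0.14 and Xbp1 0.00. Trib3, under the floor, read 6.30 and 6.76 CPM. Of 31 measured genes of the other integrated stress response list 1 was at least 25% higher and 1 was at least 20% lower, with a median of -0.04. In cycling cluster 15, with only 194, 85 and 94 cells, Asns read 2.90, 65.8 and 19.8 CPM in the 3 libraries. In the larger clusters the difference between LPS and LPS with Reg3g was smaller. Asns read 34.4 and 27.5 CPM in cluster 16, and 18.7 and 13.2 CPM in cluster 18. In total 5 of the 26 measured ER response genes were at least 25% higher and 3 were at least 20% lower, against 4.47% and 2.05% of all measured genes.

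The Hspa1a and Hspa1b pair differed in direction between the main classes, and the other inducible members did not. In alveolar-macrophage-like cells Hspa1a was 2.70-fold lower with Reg3g (-1.43 [-1.56, -1.30]), Hspa1b was 1.79-fold lower (-0.84) and Dnajb1 had -0.32, which passed 20% lower in 7 of 15 alternatives. In monocyte-like cells Hspa1a was 1.60-fold higher (0.67 [0.61, 0.74]) and Hspa1b was 1.89-fold higher (0.92), while Dnajb1 had -0.09. Hsph1 was near level in both, at 0.08 and 0.07. Within monocyte-like clusters 6, 10, 12 and 13 the Hspa1a ratios were 0.56, 0.19, 0.50 and 0.78, and in cluster 5 the ratio was -0.40. Within alveolar-macrophage-like clusters 2, 15, 16 and 18 they were -1.83, -2.25, -1.31 and -1.73. Summed immediate early genes were 7708 and 7045 CPM in alveolar-macrophage-like cells and 15484 and 16458 CPM in monocyte-like cells for LPS and LPS with Reg3g, and their part in the heat shock ratios was not tested. With all kept cells of a library as one class, the Hspa1a ratio was -0.47.

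**Figure D3:**
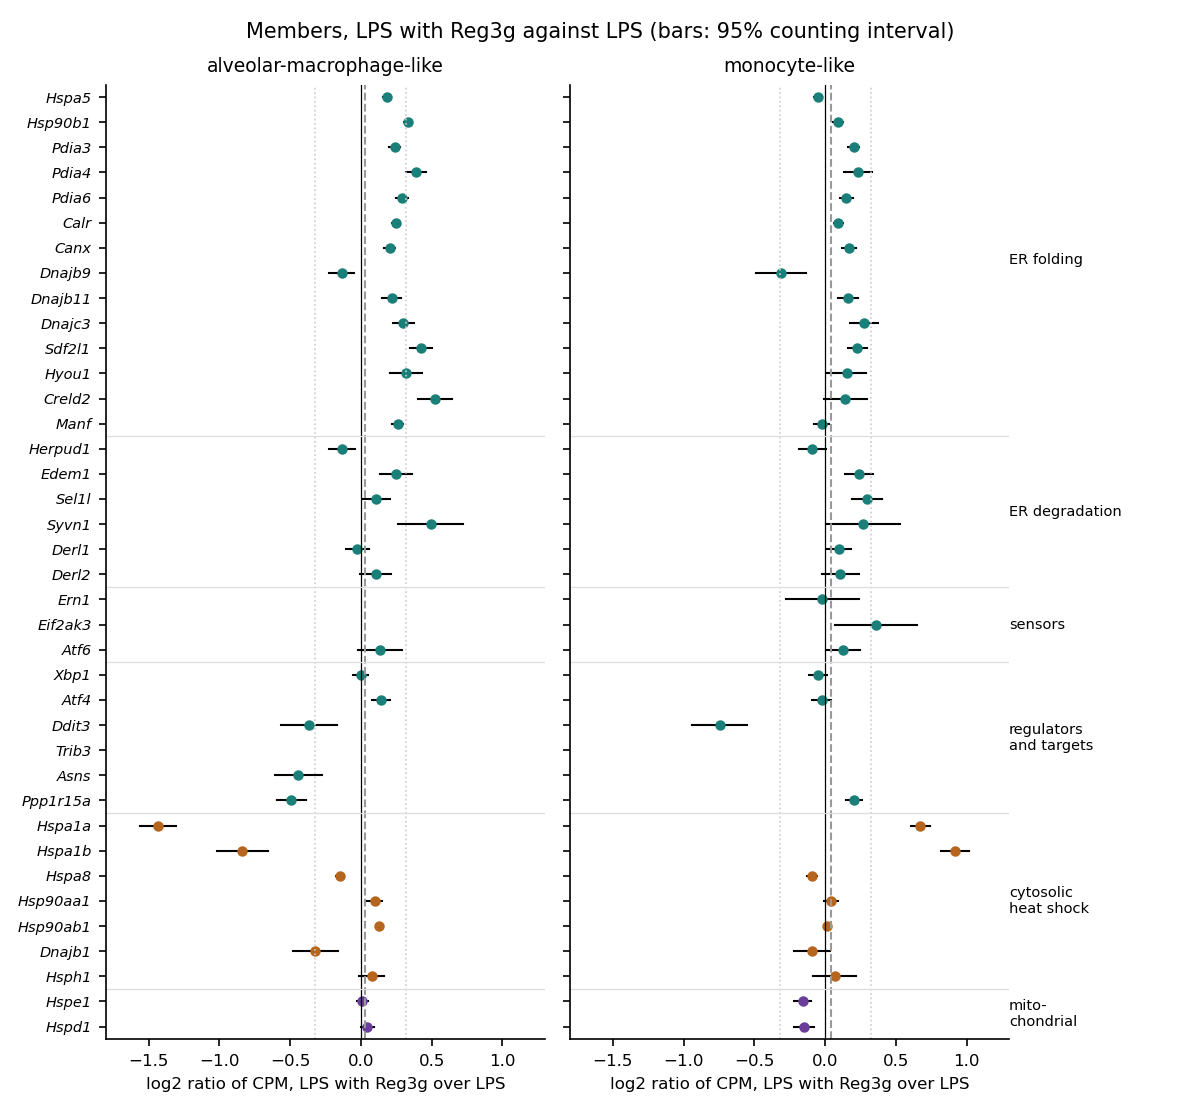
Log2 ratio of CPM, LPS with Reg3g against LPS, for each measured member in both main classes (points; bars are 95% counting intervals; teal, ER response; brown, cytosolic heat shock; purple, mitochondrial chaperonin). Dotted lines mark 25% higher and 20% lower; most ER folding genes lie just right of 0 in alveolar-macrophage-like cells, and Hspa1a and Hspa1b lie on opposite sides in the 2 classes.

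In monocyte-like cells the 14 folding genes had a median of 0.15 (-0.05 with each library clustered alone) and none was 25% higher or 20% lower, against 6.67% of all genes higher and 3.72% lower. The median differed between clusters, at 0.29 in cluster 10 and 0.31 in cluster 13 with 13 of 14 genes above 0 in each, 0.18 in cluster 6, 0.09 in cluster 12 and -0.04 in cluster 5. The first pair lies in the range of the alveolar-macrophage-like clusters. Of the ER response genes 1 was at least 25% higher (Eif2ak3, 0.36 [0.07, 0.65]) and 1 was at least 20% lower (Ddit3, -0.75 [-0.94, -0.55]). Eif2ak3 lay near the floor of 10 CPM in both libraries. It was at least 25% higher in 9 of 16 alternatives, with ratios from 0.12 to 0.45. Ddit3 was lower with Reg3g in all 8 classes that had at least 50 cells in both libraries, and Calr was higher in all 8, with counting intervals clear of 0 in 3 and 5 of them. Hspa1a was lower in 7 of 8, with the interval below 0 in 4, and monocyte-like cells were the exception. These classes share libraries, and the share of all genes with one direction in all 8 was not counted.

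Across classes, Hspa1a and Hspa5 were highest in different cells. Hspa1a was lowest in alveolar-macrophage-like cells in every library. It was highest in type 1 conventional dendritic-cell-like cells in PBS (1420 CPM) and LPS (855 CPM), where 674 and 296 cells were measured. In LPS the interval of migratory dendritic-cell-like cells (772 CPM) overlapped it. Hspa5 was highest in interstitial-macrophage-like cells, at 973, 1610 and 1362 CPM in 471, 165 and 129 cells. In LPS with Reg3g it did not differ beyond counting error from type 1 conventional dendritic-cell-like cells (1349 CPM). ER folding genes were highest in alveolar-macrophage-like cells for 8 of 14 members in PBS and 3 of 14 in LPS, where interstitial-macrophage-like cells led 6 of 14.

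Some directions of LPS against PBS were shared by the 8 classes compared. The classes come from the same libraries, and the share of all genes with one direction in all 8 was not counted. Hspa1b was lower in 8 of 8, with the counting interval below 0 in each. Hspa1a was lower in 7 of 8, with the interval below 0 in 7. Type 2 conventional dendritic-cell-like cells were the exception for Hspa1a (580 CPM in PBS and 606 in LPS). Dnajb11, Hsp90ab1 and Derl2 were higher in 8 of 8, with intervals above 0 in 7, 7 and 4. Hspa5 was higher in 7 of 8 (interval above 0 in 6), and migratory dendritic-cell-like cells were the exception (471 and 361 CPM). Atf6 and Atf4 were each lower in 7 of 8, with the interval below 0 in 4 for each.

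**Figure D4:**
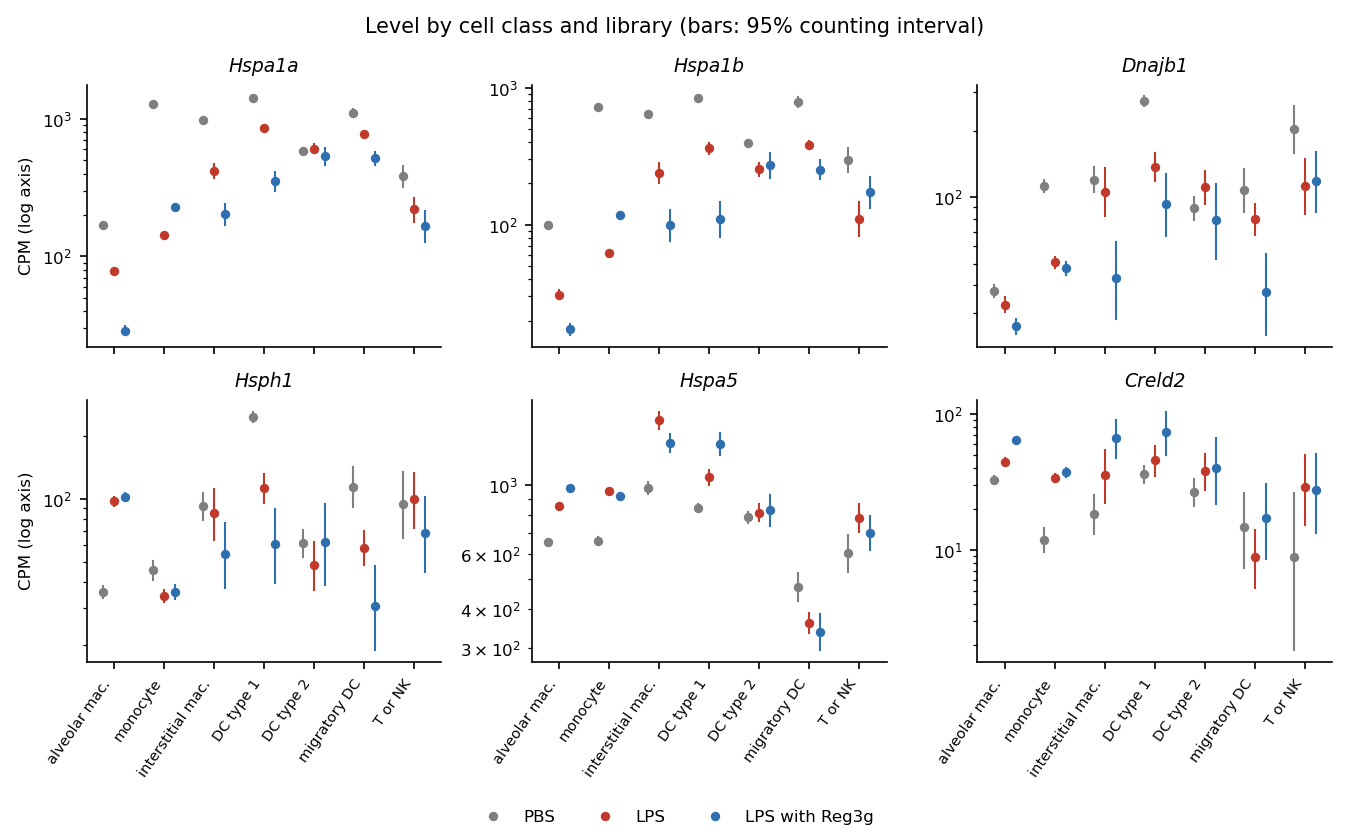
CPM (log axis) of Hspa1a, Hspa1b, Dnajb1, Hsph1, Hspa5 and Creld2 in 7 classes, by library (points; bars are 95% Poisson intervals). Alveolar-macrophage-like cells have the lowest Hspa1a, at 169, 78.0 and 28.9 CPM, and interstitial-macrophage-like cells the highest Hspa5.

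Likeness among members was described over the same 49 cluster-by-library groups. These share libraries, and the clusters were formed from genes that include members, so no p is given. The closest ER pairs were Pdia3 with Sdf2l1 (rho 0.88), Pdia6 with Calr (0.88), and Hspa5 with Calr (0.86). Hsp90b1 was most like Canx (0.85), Xbp1 most like Derl1 (0.71), and Asns most like Hspd1 (0.80). Hspa5 had a median rho of 0.32 with the ER response genes and -0.21 with the heat shock genes. By median rho, Hspa8 (0.19 and -0.06) and Hsp90ab1 (0.21 and -0.09) were closer to ER genes than to their own group. Hsp90aa1 went the other way (-0.06 and 0.25). Hspa8 was most like Dnajb11 (0.65), and its rho with Hsp90ab1 was 0.61.

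**Figure D5:**
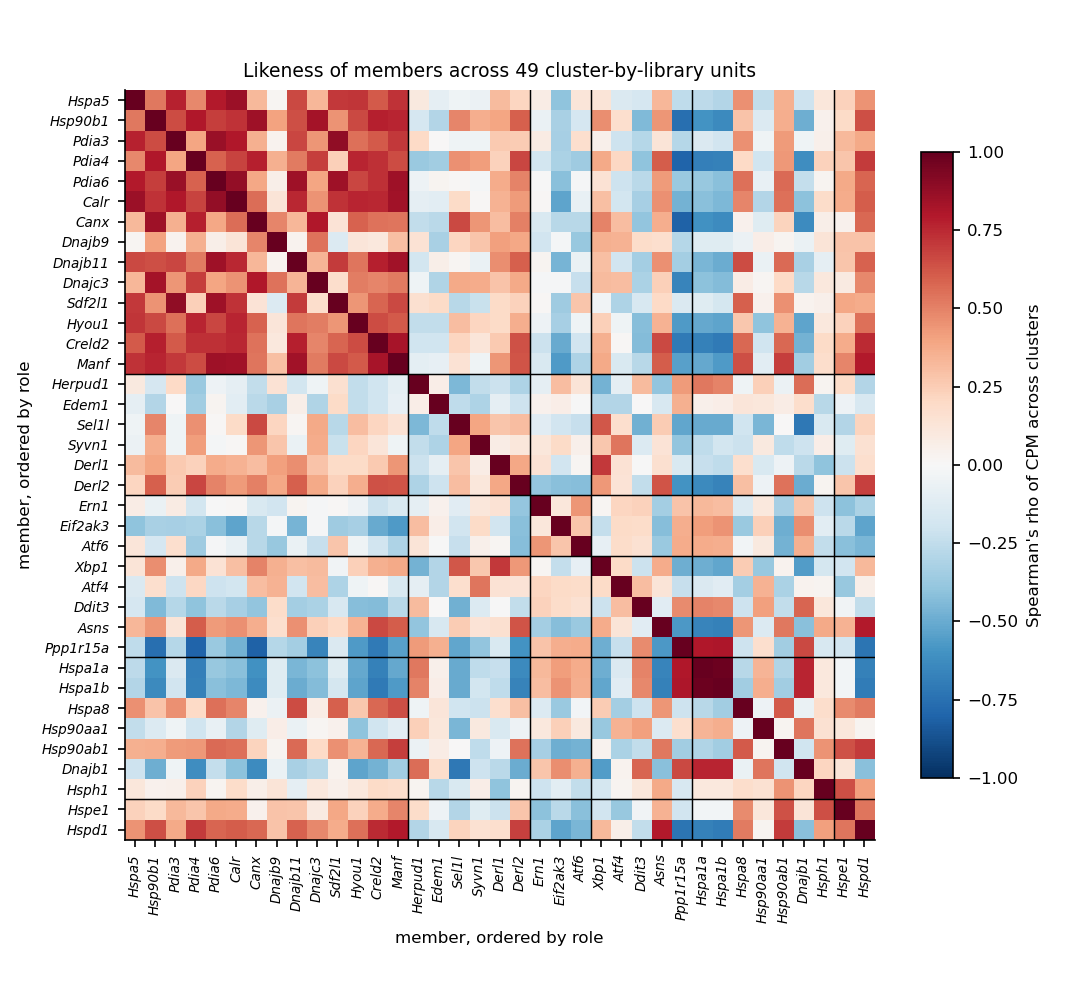
Spearman rho between members over 49 cluster-by-library groups (colour scale from -1 to 1), ordered by role. Hspa1a and Hspa1b pair at 0.98, and Hspa5 with Calr at 0.86.

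Genes of related lists that are not members were counted in the same way. For LPS against PBS, 4.97% of all measured genes were 2-fold higher and 10.1% were 2-fold lower in alveolar-macrophage-like cells. In monocyte-like cells these shares were 10.4% and 7.34%. Of the other genes of ER folding and redox, 26 were measured in alveolar-macrophage-like cells and 27 in monocyte-like cells, with medians of 0.04 and 0.29 for LPS against PBS. P4hb, the main disulphide isomerase, read 150 and 289 CPM in monocyte-like cells (0.95). Other integrated stress response genes had medians of 0.28 and 0.66, with 7 of 31 measured 2-fold higher and 3 lower in alveolar-macrophage-like cells, and 10 of 31 higher and 1 lower in monocyte-like cells. Slc7a11, the cystine carrier, read 19.5 CPM in PBS and 242 in LPS in alveolar-macrophage-like cells (3.64), and 30.0 and 158 CPM in monocyte-like cells (2.40). Mthfd2, of the mitochondrial folate cycle, read 30.0 and 105 CPM in alveolar-macrophage-like cells (1.81). Atf3 was lower in both classes (-1.28 and -2.13), as Ddit3 was.

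Other heat shock and chaperonin genes had medians of 0.12 and 0.56. In monocyte-like cells 7 of 38 were 2-fold higher and 2 were 2-fold lower, against 10.4% and 7.34% of all measured genes. In alveolar-macrophage-like cells these were 2 and 1 of 37, against 4.97% and 10.1%. Subunits of the cytosolic chaperonin were among the higher ones, with Cct3 at 93.2 and 230 CPM in alveolar-macrophage-like cells (1.31) and at 56.2 and 179 CPM in monocyte-like cells (1.67). Fkbp5, a co-chaperone of Hsp90, had ratios of 1.68 and 2.81. Mitochondrial protein quality genes had medians of 0.28 and 0.38, with Hspa9, the mitochondrial Hsp70, at 152 and 261 CPM (0.78) and at 55.1 and 127 CPM (1.20). Medians of these lists for LPS with Reg3g against LPS lay near those of all genes, at 0.07 and 0.02 for other ER folding and redox and at 0.00 and -0.02 for other heat shock.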

How the data were processed

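The deposited UMI counts are whole numbers per gene and barcode, which the file headers credit to Cell Ranger 9.0.1. The submitters' processing notes list Seurat 4.4.0, bcl2fastq 5.0.1 and mm10 as the build. For the gene annotation, nothing is stated in the labels. The lowest barcode held 502 UMIs in PBS and 500 in the other libraries.

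Cells were kept at 500 or more genes, 1000 or more UMIs and a mitochondrial share of 15% or less, and the highest Scrublet scores were removed as doublets, at 0.4% of barcodes per 1000 barcodes. Leiden clustering (resolution 1, 15 neighbours, 30 components from 2000 variable genes) of the 3 libraries together gave 21 clusters. They were named X-like from 19 marker lists; the scoring thresholds were set after clusters were seen, and 3 stayed unnamed. With rebuilt names, classes may differ from the study's.

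For each class in a library, counts were added and set against the class total (CPM). CPM has an exact Poisson, a ratio an exact conditional binomial and a share a Clopper-Pearson 95% interval, for counting error only. Ddit3 has 2 identifiers, which were summed. Members and lists were chosen with earlier results of these data known. All members are given; of other lists, up to 4 genes per comparison with the largest ratio and at least 50 CPM could be named. Ratios were tested on simulated Poisson counts, which hold no spread between cells or mice beyond counting error, so that spread was not covered. Motifs were searched in RefSeq promoters (GRCm38.p6); 7 members were not matched. Alternatives changed cell filter, doublets, clustering, scaling, weighting, thinning, classes and floor. Python 3.11.15, scanpy 1.11.5, scipy 1.17.1, numpy 2.4.6, pandas 2.3.3 and matplotlib 3.10.9 were used.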

Additional observations from a re-analysis of the deposited data

Results flagged for a closer look

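Hspa1a and Hspa1b differed in direction between the main classes for LPS with Reg3g against LPS. The Hspa1a log2 ratio was -1.43 in alveolar-macrophage-like cells and 0.67 in monocyte-like cells. For Hspa1b the ratios were -0.84 and 0.92. Each group is 1 library, so the difference was not tested.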

How the results depend on the processing

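No paired analysis was possible because each group is 1 library. The sign of the log2 ratio was kept under every alternative for 27 of 35 measured members in alveolar-macrophage-like cells and 26 of 36 in monocyte-like cells for LPS against PBS, and for 28 of 35 and 13 of 36 for LPS with Reg3g against LPS. Alternatives with only classical-like or nonclassical-like clusters, or with the unnamed cluster led by Fstl1 and Inhba, were chosen after seeing the data. The cause of the changes below was not tested. For LPS against PBS in alveolar-macrophage-like cells the ER response median (-0.12) was 0.070 with median-of-ratios scaling, 0.13 with trimmed mean scaling and -0.19 with a floor of 5 CPM. The cytosolic heat shock median (-0.20) was -0.0097, 0.048, 0.27 (floor of 50 CPM) and -0.41 (all kept cells). In monocyte-like cells the ER response median (0.15) was 0.25 with the trimmed mean, 0.37 with a floor of 50 CPM, -0.10 with all kept cells, 0.29 in classical-like and 0.059 in nonclassical-like clusters. The heat shock median (-0.43) was -0.33 with the trimmed mean, -0.79 with a floor of 50 CPM, -0.33 with each library clustered alone, -0.30 in classical-like and -0.84 in nonclassical-like clusters. For LPS with Reg3g against LPS in alveolar-macrophage-like cells the ER response median (0.21) was 0.15 with each library clustered alone. The heat shock median (-0.15) was -0.18 with median-of-ratios, 0.076 with a floor of 50 CPM, -0.10 with all kept cells, -0.11 with doubled doublet removal and -0.10 at resolution 2. In monocyte-like cells the heat shock median (0.04) was -0.021 with the trimmed mean, 0.11 with cells weighted equally, -0.10 with all kept cells, -0.032 at resolution 2, -0.12 with each library alone and 0.13 in nonclassical-like clusters. With all kept cells of a library as one class, the ratios of Hspa1a and Hspa1b were -0.47 and -0.21, against 0.67 and 0.92 in monocyte-like cells. Counting depth limits the members under 10 CPM, Ern1, Eif2ak3 and Trib3 in alveolar-macrophage-like and Trib3 and Asns in monocyte-like cells.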
